A study of Sus scrofa with 45 samples.

Results

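The comparison described here is that of pigs fed a high-fat, high-cholesterol diet (HFCD) with pigs fed a control diet, in whole blood after 27 weeks of feeding. Its members were chosen by their labels alone: whole blood, 27 weeks, and either of these diets. That gives 4 control and 3 HFCD arrays, 7 of the 45 arrays of the series. The animals were male Clawn miniature pigs from a pathogen-free breeding herd, 12 weeks old when the diets began. Control pigs ate a standard dry feed. HFCD pigs ate feed with 15% lard and 2% cholesterol. A further diet with sucrose as well (HFCSD, 3 arrays of whole blood at 27 weeks) lent its arrays to the estimate of the spread and is otherwise used only for direct comparison. Whole blood was kept in PAXgene tubes, whereas the white blood cell samples of the same feeding period were captured with LeukoLock filters, which let red cells and platelets pass. RNA was labelled with Cy3 and read on 1-colour porcine oligonucleotide arrays.

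The methods name 5 pigs for each diet, so not every pig has an array here. The labels number the replicates but do not name the pigs. Every p-value below measures the spread between samples within a group, and with 3 or 4 samples a group the number of arrays limits the precision.

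Dietary cholesterol reaches blood cells in lipoproteins. A cell that takes up more cholesterol than it needs forms oxysterols, which activate the nuclear receptors LXR; these switch on the exporter ABCA1 and other genes of cholesterol efflux. Surplus sterol also holds back the transcription factor SREBP2, which otherwise drives the enzymes of sterol synthesis. Blood leukocytes carry a further set of genes that interferons induce, among them antiviral proteins and the chemokine CXCL10.

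Each array read 43603 probes. A spot counts as well above background when the image software judged its signal to exceed the local background clearly. The share of such spots was 50.2, 49.4, 46.5 and 38.9% on control arrays 1 to 4 and 48.9, 43.6 and 46.0% on HFCD arrays 1 to 3. Control array 4 lay below the other arrays and the groups overlapped. The mean was 46.2% (SD 5.14, n = 4) for control and 46.2% (SD 2.67, n = 3) for HFCD, a difference of -0.0841 percentage points (exact permutation test, two-sided, p = 1.0). With 35 ways to assign 4 and 3 arrays the smallest two-sided p this exact test allows is 0.0571, so it cannot reach 0.05.

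Control array 4 and HFCD array 2 stood apart from the rest of their groups. Across probes, Pearson's r between control arrays 1, 2 and 3 was 0.980, 0.979 and 0.979, whereas control array 4 gave 0.953, 0.932 and 0.944 with them. HFCD array 2 gave 0.935 with HFCD array 1 and 0.963 with HFCD array 3, and 0.967, 0.978 and 0.971 with the HFCSD arrays. These are correlations across probes, which are not independent replicates. Both arrays lie on slide 13, which also holds control array 1. Slide 12 holds control array 2, HFCD arrays 1 and 3 and HFCSD array 2, and slide 11 holds control array 3 and HFCSD arrays 1 and 3. Values without both of these arrays and values within slides 12 and 13 are therefore given beside the raised probes and for part of the other results; slide 11 has no HFCD array and gives none. Leaving out both arrays together was chosen after seeing the data.

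Of the 43603 probes, 18186 were tested: those well above background on every usable array of the control or of the HFCD group. The median change over these probes, HFCD minus control on the log2 scale, was -0.03, and 53.4% of the changes were below 0. A difference of more than 2-fold was seen for 630 probes upward and 271 downward. At an adjusted p under 0.05 (limma, Benjamini-Hochberg over all tested probes), 3 probes were raised (0.0165%) and 0 were lowered (0.0%). At an unadjusted p under 0.05, 567 probes were higher (3.12%) and 442 lower (2.43%). All 3 HFCD arrays lay above all 4 control arrays for 322 probes (1.77%) and below them for 803 (4.42%). The criterion of the study's methods, which joins a fold of 2 or of 0.5 to an unadjusted p under 0.05, was met by 87 probes upward (0.478%) and 191 downward (1.05%). Leaving out HFCD array 1 took the upward count by that criterion to 535, control array 4 to 138, HFCD array 2 to 55, control array 3 to 48 and HFCD array 3 to 47. The downward count was 118 without control array 3 and 102 without HFCD array 3. The number of lowered probes by adjusted p was 3 without control array 4 and 1 without HFCSD array 3. With the replicate number as a block 0 probes were raised and 0 lowered, and the adjusted p of ABCA1 was 0.137. Control and HFCD pigs are different animals, and the labels do not say that equal numbers pair them.

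Few probes carry a gene name. A name could be attached to 2097 of the tested probes, standing for 1488 genes, and 16089 tested probes stayed unnamed. Among named genes with an unadjusted p under 0.05, 45 had a probe on which every HFCD array lay above every control array and 42 a probe on which every HFCD array lay below.

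ABCA1, which moves cholesterol and phospholipid out of cells onto apolipoprotein A-I, was the 1 named gene that passed the adjusted test. Its probe A_72_P079266 read a log2 signal of 9.92, 10.41, 9.84 and 9.85 on control arrays 1 to 4 and of 12.47, 12.33 and 12.49 on HFCD arrays 1 to 3. The HFCD arrays were close together and far above the highest control, array 2. The means were 10.01 (SD 0.27, n = 4) and 12.43 (SD 0.08, n = 3), a rise of 2.42 on the log2 scale or 5.36-fold (SE 0.21, adjusted p = 0.00207). The change was 2.07 within slide 12 and 2.45 within slide 13, and 2.42 without control array 4 and HFCD array 2. Leaving out single arrays gave changes from 2.37 to 2.56.

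The array carries this probe under a description of the mouse gene, and the name ABCA1 rests on that description. In the earlier samples and in white blood cells ABCA1 had values much like these: the HFCD minus control change was 2.38 at 10 weeks, 2.27 at 19 weeks and 2.41 in white blood cells at 27 weeks. Those samples were drawn from the same pigs of each diet and are not independent replicates. In white blood cells the controls ran from 9.75 to 10.25 and the HFCD arrays from 12.25 to 12.66, with no overlap. The difference of the change between whole blood and white blood cells had an adjusted p of 1.00 over all probes. On the HFCSD arrays, which are compared with the same controls, the change was 2.29.

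The other raised probes have no gene name. A_72_P202657, which matches a porcine cDNA, read 5.22, 5.43, 4.89 and 5.38 in controls and 8.11, 8.50 and 7.97 in HFCD. All HFCD arrays were high and the groups stood far apart. The rise was 2.96 (SE 0.25, adjusted p = 0.00207), with 2.61 within slide 12 and 3.20 within slide 13, and 2.86 without both arrays that stood apart. Another probe of the same contig, A_72_P034336, looked up after these values were seen, read 4.07, 4.24, 4.32 and 4.74 in controls and 6.09, 6.54 and 6.05 in HFCD. It too had no overlap between the groups, and its change of 1.89 did not pass the adjusted test (adjusted p = 0.159). That adjusted p was 0.0473 without HFCSD array 3 and 0.0399 when fitted with all 45 arrays. The fit of all 45 arrays treats repeated samples from the same pigs as independent.

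A_72_P072951, whose description is unknown, read 6.75, 6.79, 6.28 and 6.32 in controls and 8.43, 9.03 and 8.85 in HFCD. The groups did not overlap, and HFCD array 1 was the lowest of its group. The rise was 2.24 (SE 0.23, adjusted p = 0.00818), with 1.85 within slide 12 and 2.50 within slide 13. Without HFCD array 3 the adjusted p of A_72_P072951 was 0.119, without HFCD array 2 it was 0.0677 and without control array 3 it was 0.0527, with changes of 2.20, 2.11 and 2.15. Without both arrays that stood apart it was 0.132, with a change of 2.03. With slide as a fixed block it was 0.0895 at a change of 2.25, and without the HFCSD arrays in the fit it was 0.0687.

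Probe sequences are shown for the raised probes and for the second probe of the contig, since the unnamed ones carry no gene name. The stretch is 30 of the 60 bases of each probe, in the direction the array files give, with the polyadenylation hexamer AATAAA in capitals where the probe holds it. The hexamer as printed occurs in 12.1% of all 43603 probes, and its complement TTTATT in 4.63%.
ABCA1 A_72_P079266: tgatactattcaatgcaatgcaattcaatg
A_72_P202657: gacaccttaaaccttattaactgtgaatac
A_72_P034336: gtaaagtcacaaAATAAAgctgtgacagcc
A_72_P072951: ttgatcctgagttaggtggtagtagatgta

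**Figure D1:**
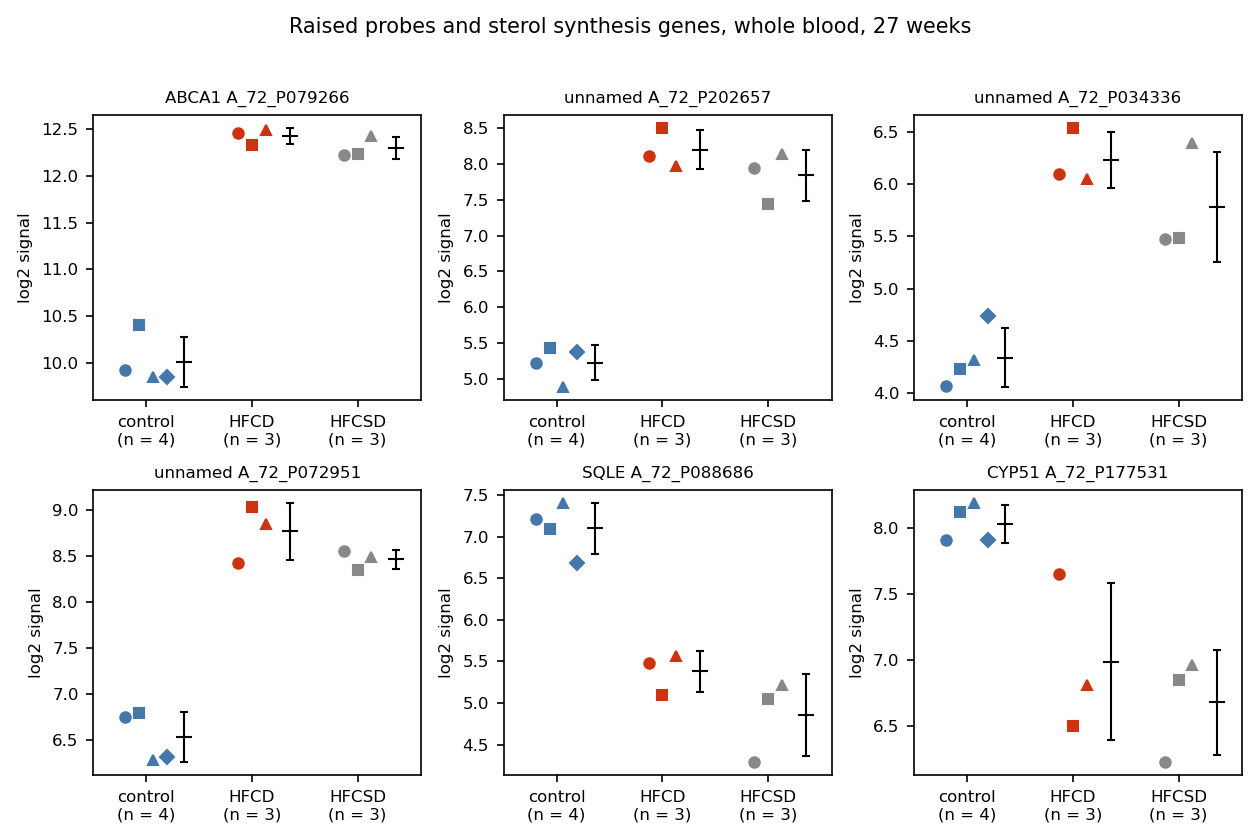
Log2 signal on each whole blood array at 27 weeks for ABCA1, 3 unnamed probes, SQLE and CYP51, by diet; symbols mark replicates 1 to 4 and the bar the mean and SD. ABCA1 lies at 12.33 to 12.49 in HFCD and at 9.84 to 10.41 in control; SQLE lies at 5.10 to 5.57 in HFCD and at 6.68 to 7.41 in control.

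Other genes of the LXR and efflux list did not pass the adjusted test. Of its 20 members 7 were tested, with a median change of 0.80 against -0.03 over all tested probes. PLTP, which transfers phospholipid between lipoproteins, read 6.14, 5.48, 4.98 and 6.10 in controls and 6.07, 7.78 and 7.65 in HFCD. HFCD arrays 2 and 3 were high, and array 1 lay among the controls. SREBF1, an LXR target that drives fatty acid synthesis, has 2 tested probes. On A_72_P326973 it read 9.39, 9.43, 9.37 and 10.76 in controls and 9.73, 12.14 and 11.46 in HFCD, again with HFCD array 1 among the controls. The other SREBF1 probe, A_72_P223967, was well above background on 3 of 4 control arrays, with control array 4 far below the others at 4.15, and the size of its difference is not given. The list's median was 0.37 without control array 4, 0.40 without both arrays that stood apart and -0.06 within slide 12 against 1.29 within slide 13.

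The sterol synthesis list had the lowest median of all lists, -1.05, from 3 tested genes of 20 members. No probe of these genes passed the adjusted test, and 4 of 4 tested probes had every HFCD array below every control array, a pattern of 4.42% of all tested probes. SQLE, the epoxidase that commits squalene to sterol, has a further probe, A_72_P374783, that was not tested. On A_72_P088686 it read 7.21, 7.09, 7.41 and 6.68 in controls and 5.48, 5.10 and 5.57 in HFCD. The HFCD arrays were all low and well separated from the controls. The change was -1.72 (SE 0.28, unadjusted p = 8.56e-05, adjusted p = 0.260), with -1.57 within slide 12 and -1.85 within slide 13. Fitted with all 45 arrays SQLE had an adjusted p of 0.0115. That fit treats repeated samples from the same pigs as independent. In white blood cells after the same feeding period SQLE changed by -1.48 with an adjusted p of 0.0377, and the difference from whole blood had an adjusted p of 1.00.

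CYP51, the sterol demethylase, read 7.91, 8.12, 8.19 and 7.91 in controls and 7.65, 6.50 and 6.81 in HFCD. HFCD array 1 lay close to the controls and the groups did not overlap. MSMO1, a methyl sterol oxidase, gave changes of -0.80 and -0.81 on its probes. Of the genes of sterol sensing and uptake 7 of 17 were tested, with a median of 0.02 (-0.13 without HFCD array 3 to 0.12 without HFCD array 1). SCARB1, which binds HDL, had a change of -0.68 and did not pass the adjusted test.

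The list of PPAR targets and lipid storage had 13 of 19 members tested and a median of 0.11 (0.01 without control array 2 to 0.33 without control array 4). UCP2, a mitochondrial carrier, ran from 12.67 to 13.04 in controls and from 13.21 to 14.49 in HFCD, without overlap, a change of 1.00. The scavenger receptor CD36, which takes up fatty acids and oxidized lipoproteins, read 7.86, 7.92, 8.10 and 8.73 in controls and 7.35, 7.03 and 6.30 in HFCD on A_72_P303204. All HFCD arrays were below the controls on that probe. The change was -1.26 (adjusted p = 0.893), with -1.01 and -0.04 on the other CD36 probes tested.

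The interferon-induced list had 18 of 43 members tested and the highest median of all lists, 1.01. Of its 36 tested probes 22 were higher at an unadjusted p under 0.05 and 14 had every HFCD array above every control array. By either measure 0 were lower, and 0 passed the adjusted test. Over all tested probes 3.12% were higher by the first measure and 1.77% by the second. Both counts of the list include CXCL10 A_72_P099341, which was admitted to the test by its HFCD arrays alone. Counts without probes admitted in this way are not given. By gene, 17 had a higher and 1 a lower mean in HFCD, the lower being OAS1 with a change of -0.41. The list's median change was 0.88 within slide 12, 1.06 within slide 13 and 0.76 without both arrays that stood apart. The score of an array on a list is the median, over its tested genes, of the log2 level minus the control mean. It was 0.77, 0.05, 0.02 and -0.70 on control arrays 1 to 4 and 0.67, 0.91 and 1.28 on HFCD arrays 1 to 3. Control array 1 was high, above HFCD array 1, and control array 4 was low.

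CXCL10, which draws activated T cells, has 2 probes. On A_72_P099341 only 1 of 4 control arrays read clearly over background, so the size of its difference is not given. On A_72_P165266 it read 8.49, 6.62, 6.01 and 7.17 in controls and 9.16, 9.95 and 10.91 in HFCD. Every HFCD array was above every control array, and the gap between HFCD array 1 and control array 1 was small. The means were 7.08 (SD 1.06, n = 4) and 10.00 (SD 0.88, n = 3), a change of 2.93 (SE 0.62, unadjusted p = 0.000706, adjusted p = 0.802). It was 3.41 within slide 12 and 2.11 within slide 13. CXCL10 on A_72_P165266 had changes of 2.98 at 10 weeks, 4.03 at 19 weeks and 2.57 in white blood cells.

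RSAD2, the antiviral protein viperin, which the array names IRG6, read 9.79, 8.02, 7.80 and 7.68 in controls and 11.31 and 11.61 on HFCD arrays 2 and 3. HFCD array 1 lay just below control array 1, so the groups overlapped. The change was 2.48 (SE 0.59, adjusted p = 0.893). MX1, which blocks influenza virus, read 14.44, 13.53, 12.68 and 12.38 in controls and 14.59, 15.01 and 14.71 in HFCD on A_72_P302839. The groups did not overlap, with control array 1 next to HFCD array 1. LGALS9, a galectin that the array names as a urate transporter, ran from 10.47 to 12.62 in controls and from 12.66 to 13.61 in HFCD on A_72_P179706, with the same 2 arrays side by side. The changes were 1.51 for MX1 and 1.93 for LGALS9. LGALS9 had 1.52 without both arrays that stood apart.

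**Figure D2:**
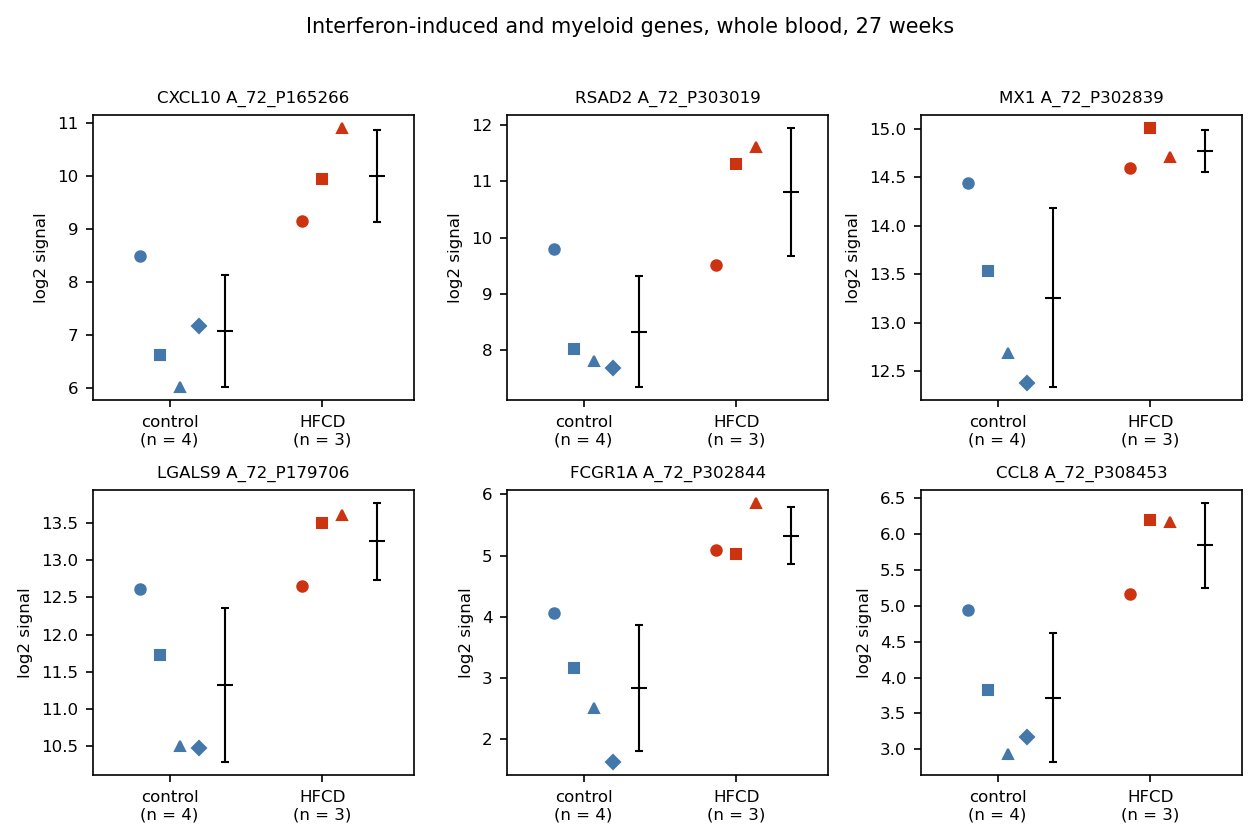
Log2 signal on each control and HFCD array of whole blood at 27 weeks for CXCL10, RSAD2, MX1, LGALS9, FCGR1A and CCL8; symbols mark replicates 1 to 4 and the bar the mean and SD. On MX1 control array 1, at 14.44, lies next to HFCD array 1, at 14.59, while control array 4 lies at 12.38.

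FCGR1A, the high-affinity IgG receptor of monocytes, read 4.05, 3.15, 2.50 and 1.62 in controls and 5.09, 5.03 and 5.86 in HFCD. It was well above background on 1 of 4 control arrays and on all 3 HFCD arrays, and the groups did not overlap. CCL8, a chemokine for monocytes, read 4.94, 3.83, 2.93 and 3.17 in controls and 5.16, 6.20 and 6.17 in HFCD. HFCD array 1 lay just above control array 1, and 2 of 4 control arrays were well above background. With control levels so dim the sizes of these differences are not given; neither gene passed the adjusted test.

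Chemokines and their receptors as a list had 15 of 30 members tested and a median of 0.15 (0.38 without control array 2; -0.12 within slide 12, 0.41 within slide 13). CCL3L1 had the lowest change there, -0.93. Cytokines had 14 of 33 tested and a median of 0.13 (0.04 without control array 4 to 0.22 without control array 3). IL18, which induces interferon gamma, read 9.88, 9.01, 10.16 and 9.72 in controls and 8.62, 8.75 and 8.02 in HFCD. All HFCD arrays were below the controls, and the change was -1.23 (adjusted p = 0.893), with -0.69 within slide 12 and -1.05 within slide 13. TGFB2 had a change of -0.99, and IL27 was well above background on 1 of 4 control arrays. Toll-like receptor signalling had 13 of 23 tested and a median of 0.17 (-0.09 without control array 4 to 0.33 without HFCD array 2; -0.05 with slide as a fixed block), with changes from -0.74 for LY96 to 0.62 for TLR8; NFKB1 had 0.60.

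The complement list had 8 of 23 members tested and a median of 0.08 (-0.10 without control array 4 to 0.27 without HFCD array 3). C2 and C1R, enzymes of the classical pathway, had the largest changes, and no member passed the adjusted test. C2 read 8.69, 8.90, 7.95 and 8.31 in controls and 9.46, 9.95 and 9.88 in HFCD, and C1R read 8.55, 8.36, 8.19 and 7.76 and 9.57, 9.82 and 9.07. On both, all HFCD arrays lay above all controls. The changes were 1.30 and 1.27, and 1.16 and 0.95 without both arrays that stood apart; C5AR1 had 0.63.

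Antigen presentation had medians of 0.36 for MHC class I (9 of 19 members tested) and 0.63 for class II (5 of 13). No member passed the adjusted test, and every tested gene of both lists had a higher mean in HFCD. That includes TAP1, which was admitted to the test by its HFCD arrays alone. Over all tested probes 53.4% of the changes were below 0. At an unadjusted p under 0.05, 0 of 23 tested class I probes and 4 of 14 class II probes were higher, against 3.12% of all tested probes. All HFCD arrays lay above all controls on 1 probe of each list, against 1.77%. SLA-DQB1, a class II chain, read 12.38, 14.15, 13.54 and 13.06 in controls and 14.14, 14.37 and 14.69 in HFCD. Control array 2 lay level with HFCD array 1. The changes were 1.12 for SLA-DQB1, 0.69 for CD74, 0.63 for SLA-DRA, 0.50 for PSME2 and 0.38 for PSMB8. TAP1, the peptide transporter, had the highest mean change of the class I list, 1.12, but on each of its 2 tested probes 1 of the 4 control arrays was not well above background. The class I median was 0.12 within slide 12 and 0.50 within slide 13. The class II median was 0.36 without HFCD array 3, 0.27 within slide 12, 0.53 within slide 13 and 0.19 when each gene was read from its brightest probe.

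The study's tables name 6 genes for this diet, tissue and feeding period, chosen on these same arrays: CXCL10, UPK2, RSAD2, ABCA1, ROMO1 and CNN1. UPK2, a uroplakin of the bladder lining, read 7.63, 8.56, 7.59 and 9.25 in controls and 9.26, 11.22 and 11.54 in HFCD. HFCD array 1 lay level with control array 4, and HFCD arrays 2 and 3 were high. The change was 2.41 (SE 0.59, adjusted p = 0.893). UPK2 gave changes of -0.93 at 10 weeks and 0.29 at 19 weeks. In white blood cells its levels ran from 2.67 to 4.92 in controls and from 4.10 to 5.79 in HFCD, against 7.59 to 11.54 in these 7 whole blood arrays.

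ROMO1, a mitochondrial membrane protein linked to reactive oxygen, has 4 probes with unlike values. A_72_P100156 read 10.28, 12.47, 10.64 and 10.17 in controls and 13.21, 13.99 and 13.15 in HFCD. Control array 2 was the high control, and all HFCD arrays lay above it. The change was 2.56 (SE 0.50, adjusted p = 0.785), with 0.71 within slide 12, where control array 2 lies, and 3.77 within slide 13. Without control array 2 the change was 3.09 and the adjusted p 0.00747. The other 3 ROMO1 probes gave changes of 0.36, 0.38 and 0.36, with overlapping groups. A_72_P100156 gave -1.27 at 10 weeks and -0.98 at 19 weeks, and its HFCSD arrays read 15.56, 15.61 and 15.22.

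The ROMO1 probe A_72_P100156 is described in the files as a cDNA and the other probes as the reference transcript. Their sequences, like the earlier set picked after the values were seen, are shown because the probes of this gene differ in their changes; the capitals mark the hexamer AATAAA.
A_72_P100156: aattggaatgtgagacgtagaactcagcga
A_72_P088151: cccatgttctatAATAAAacaaacctttga
A_72_P230067: cccatgtactatAATAAAacaaacctttga
A_72_P156339: ccgcgtgaagatgggctttgtgatgggttg

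CNN1, the smooth muscle calponin, read 5.62, 6.49, 6.81 and 7.14 in controls and 4.91, 5.42 and 3.76 in HFCD. All HFCD arrays were lower than the controls, with a small gap between HFCD array 2 and control array 1. The change was -1.82 (SE 0.50, adjusted p = 0.893). ACTA2, smooth muscle actin, read 7.92, 10.10, 9.10 and 11.28 in controls and 6.10, 8.24 and 8.05 in HFCD on A_72_P070041. There HFCD arrays 2 and 3 lay above control array 1. The mean change over the probes of ACTA2 was -2.16, and SMTN, another smooth muscle gene, had 0.71. The smooth muscle list had 6 of 13 members tested and a median of 0.02 (-0.34 within slide 12, 0.43 within slide 13). Leaving out single arrays gave -0.16 without HFCD array 2 to 0.13 without control array 3. The median was -0.56 when each gene was read from its brightest probe.

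The 10 genes with the highest changes among such separated named probes at an unadjusted p under 0.05 also include NCOA4, which delivers ferritin for breakdown, with a change of 1.53, and PNPLA2, a triglyceride lipase. NCOA4 read 8.05, 9.80, 9.64 and 10.20 in controls and 10.28, 11.63 and 10.94 in HFCD, with HFCD array 1 just above control array 4. Its change was 0.81 within slide 12 and 2.51 within slide 13. PNPLA2 on A_72_P178071 was well above background on 2 of 4 control arrays, and its other probes gave changes of 0.66, 0.86 and 0.23. On the HFCSD arrays NCOA4 read 12.19, 12.76 and 12.64.

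Among separated named probes with an unadjusted p under 0.05, the lowest changes of 10 genes, none of them past the adjusted test, ran from -2.13 to -1.23. CLAUDIN5, a tight junction protein, read 7.95, 8.10, 9.23 and 8.46 in controls and 6.26, 6.46 and 6.20 in HFCD. P2RY1, the ADP receptor of platelets, read 8.87, 8.19, 8.94 and 9.54 in controls and 7.45, 7.47 and 7.03 in HFCD. On both genes the HFCD arrays were close together and below all controls. Their changes were -2.13 and -1.56, with -1.87 and -0.94 within slide 12 and -1.75 and -1.73 within slide 13. AIG1 (-1.34), PRNP (-1.36) and the matrix protein MGP (-1.48) followed the same order of the groups, as did INHBB, which was well above background on 1 of 3 HFCD arrays and has no sure size of difference. MGP gave -0.64 within slide 12 and -2.55 within slide 13, and PRNP -0.29 and -2.66.

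P2RY1 is known from platelets, and the platelet markers as a list also had low values in HFCD. Of 18 markers 8 have a named probe, all 8 were tested, and the median change was -0.83, with 7 lower and 1 higher. PF4, GP1BA, GP1BB, GP5, GP6, GP9, MMRN1, TUBB1, CLEC1B and TREML1 have no named probe. PPBP, a platelet granule chemokine, read 10.14, 10.13, 11.08 and 10.96 in controls and 8.81, 9.47 and 8.48 in HFCD on A_72_P035431. The integrin chain ITGB3, the marker with the highest signal, read 12.38, 12.73, 12.84 and 12.51 in controls and 11.32, 11.82 and 11.34 in HFCD. All HFCD arrays were below all controls on both, and 5 of the 9 platelet probes had that pattern, against 4.42% of all tested probes. At an unadjusted p under 0.05 1 of the 9 was lower, against 2.43% of all tested probes, and 0 passed the adjusted test. The changes were -1.53 for PPBP over its probes, -1.12 for ITGB3 (adjusted p = 0.893) and -1.05 for SELP.

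The summed signal of the platelet markers was 16580, 17830, 21560 and 16560 on control arrays 1 to 4 and 8601, 11320 and 8858 on HFCD arrays 1 to 3. The means were 18130 (SD 2360, n = 4) and 9593 (SD 1502, n = 3), and every HFCD array lay below every control. The median change was -0.93 within slide 12 and -0.52 within slide 13. In whole blood, fewer cells of a type and less RNA per cell cannot be told apart. What part platelets have in the values of P2RY1, CLAUDIN5 and CD36 was not tested. In white blood cells the groups overlapped almost fully: ITGB3 ran from 7.99 to 14.17 in controls and from 7.25 to 13.18 in HFCD.

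Erythroid markers were highest on the 2 arrays that stood apart, with a median change of 0.37 (0.11 without HFCD array 2, 0.75 without control array 4) and no gene past the adjusted test. Only 4 of 28 markers have a named probe and 2 were tested. The adult globins have no named probe, and TFRC was not above background on any of the 7 arrays. The summed signal was 7589, 11950, 12530 and 25300 on control arrays 1 to 4 and 10310, 19760 and 15580 on HFCD arrays 1 to 3. Control array 4 was the highest and HFCD array 2 came next. HBE1 had the highest signal, 81.4 to 89.3% of the sum in controls. The score was -0.79, -0.09, -0.25 and 1.13 in controls and -0.37, 0.89 and 0.59 in HFCD, and 1.82, 1.28 and 1.55 in HFCSD. The part of erythroid RNA in the values of SREBF1 and NCOA4 was not tested.

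**Figure D3:**
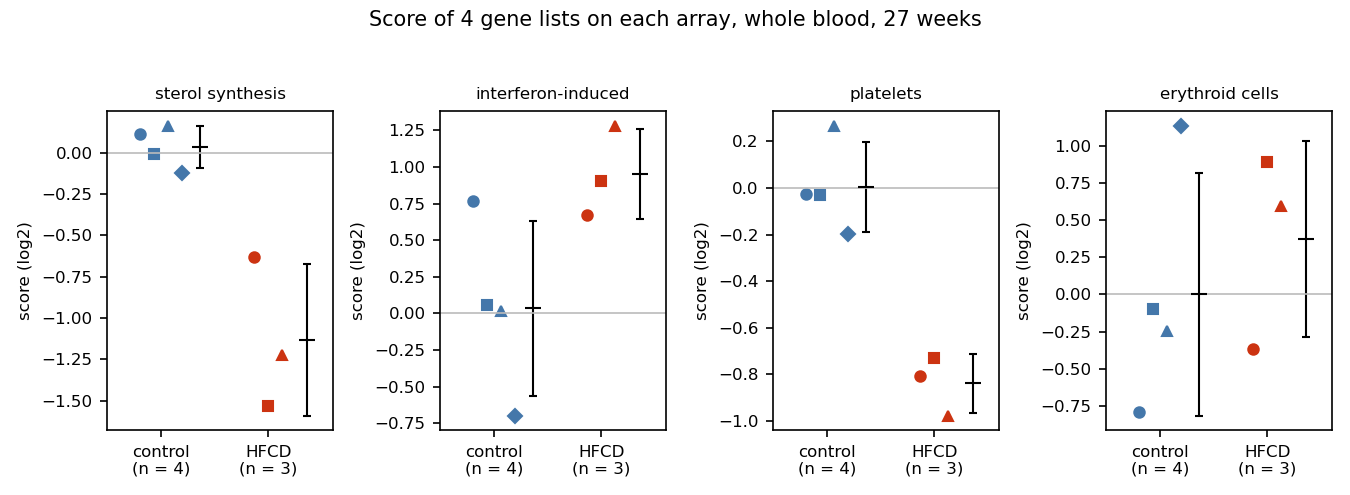
Score of 4 gene lists, the median over tested genes of the log2 level minus the control mean, on each control and HFCD array of whole blood at 27 weeks; symbols mark replicates 1 to 4 and the bar the mean and SD. Platelet scores lie at -0.98 to -0.73 in HFCD and at -0.20 to 0.27 in control; erythroid scores overlap, with control array 4 at 1.13.

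No leukocyte marker passed the adjusted test, and the list medians ran from -0.08 to 0.28. Neutrophil markers had 4 of 22 tested and a median of 0.23, or -0.13 without HFCD array 2 and 0.52 without HFCD array 1, with LTF at 0.67, MMP9 at 0.39 and NPG4 at -0.19. The name ELANE was left unmatched after its values were seen, since the accession behind the array's elastase now belongs to another elastase. The S100 proteins, MPO and CXCR2 have no named probe. The summed neutrophil signal was 16920, 10200, 15450 and 8294 in controls and 13730, 17070 and 14060 in HFCD, with MMP9 the brightest gene. The groups overlapped.

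Monocyte markers had 5 of 11 tested and a median of 0.26, or -0.02 without control array 4 and 0.53 without control array 2. CD163 had 0.53, CD14 0.26, LYZ -0.02 and CD86 -0.06. The member with the highest change was FCGR1A, admitted to the test by its HFCD arrays alone, with 1 of 4 control arrays well above background. CSF1R and CD68 have no named probe and VCAN was not above background. The summed monocyte signal was 14340, 8494, 11730 and 9916 in controls and 14220, 8826 and 10200 in HFCD, most of it LYZ. T cell markers had 6 of 14 tested and a median of 0.26 (0.69 within slide 12, 0.10 within slide 13), with 4 genes higher and 2 lower: CD3E at 1.01, CD8B at 0.71, CD8A at 0.32, CD2 at 0.21, CD3D at -0.14 and CD3G at -0.20. Their sums were 3262, 3194, 4224 and 3210 in controls and 3882, 2617 and 4379 in HFCD, and CD3D was brightest. Both sums overlapped between the groups.

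NK cell markers had 2 of 12 tested, GNLY at 0.52 and KLRK1 at 0.04, with a median of 0.28. That median was 0.13 without control array 3, 0.41 without control array 1, 0.26 within slide 12 and 0.04 within slide 13. The NK sums were 47600, 49680, 20130 and 26090 in controls and 47400, 53220 and 41120 in HFCD, nearly all GNLY. B cell markers had 2 of 11 tested and a median of -0.08 (-0.36 without control array 4 to 0.22 without HFCD array 2); the sums were 2286, 4227, 2738 and 1706 in controls and 2923, 1919 and 2615 in HFCD, nearly all CD40. CD79A and MS4A1 have no named probe. Eosinophil and basophil markers had 3 of 10 tested and a median of -0.02 (-0.26 without HFCD array 3 to 0.11 without control array 4), with GATA2 at 0.95, MS4A2 at -0.37 and CCR3 at -0.02; the sums were 582.6, 675.0, 596.8 and 848.4 in controls and 596.0, 1293 and 1019 in HFCD, with GATA2 brightest. For each of these lists the groups overlapped.

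Many markers of solid tissues were not well above background. For liver, 4 of 21 were tested with a median of 0.01 (0.19 within slide 12, 0.80 within slide 13). It was -0.33 without HFCD array 2, 0.26 without HFCD array 1 and -0.18 without both arrays that stood apart. ALB, APOB, TTR and 7 others of the 16 with a named probe were not above background on any of the 7 arrays. The liver sums were 242.6, 186.7, 223.4 and 238.5 in controls and 159.2, 344.9 and 196.1 in HFCD, with RBP4 brightest; APOC3 had 0.73, HP -0.32 and RBP4 0.18. For adipose tissue, 4 of 11 were tested with a median of -0.24 (-0.40 without HFCD array 2 to -0.09 without HFCD array 3), 1 higher and 3 lower; ADIPOQ and PLIN1 were not above background. The adipose sums were 3789, 3367, 3132 and 2389 in controls and 2709, 3409 and 2376 in HFCD, with LIPE brightest; RETN had -0.69 and LIPE -0.28, and the higher gene was PNPLA2, whose 4 probes include the dim one named above.

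For skeletal muscle, 6 of 26 markers were tested with a median of -0.16 (-0.40 without HFCD array 2 to 0.14 without HFCD array 1; -0.29 within slide 12, 0.30 within slide 13), and MYH1, MYH2 and 6 others were not above background. The sums were 1224, 986.2, 1131 and 2030 in controls and 1001, 2142 and 1159 in HFCD, with PYGM brightest; TNNI2 had -0.69, PYGM 0.52 and TTN -0.43. The smooth muscle sums were 793.6, 1470, 1248 and 2540 in controls and 757.1, 1724 and 1292 in HFCD, with SMTN brightest over the whole blood arrays of 27 weeks. Control array 4 and HFCD array 2 were the highest of their groups on both muscle lists.

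The remaining lists held no gene past the adjusted test. Adhesion and matrix had 16 of 41 tested and a median of 0.30, or -0.03 without both arrays that stood apart and 0.07 without control array 4; MGP had -1.48, THBS1 1.27 and DCN 1.22. Antioxidant genes had 14 of 27 tested and a median of 0.21 (0.13 without control array 4 to 0.27 without HFCD array 1). ROMO1 had 0.91 over its probes, PRDX6 -0.81 and GPX1 0.68. Heat shock genes had 10 of 24 tested and a median of 0.12 (-0.01 without HFCD array 3 to 0.37 without HFCD array 2), with changes from -0.36 for HSP70.2 to 0.51 for HSPH1 and 0.50 for HSP90AB1. Glycolysis had 7 of 25 tested and a median of -0.08 (-0.26 without control array 4 to 0.03 without HFCD array 2), with PFKM at 0.84, GPI at 0.50 and PGK1 at -0.49. Ribosomal proteins had 30 of 31 tested and a median of 0.00 (-0.09 without HFCD array 1 to 0.19 without HFCD array 2), with changes from -0.42 for RPLP1 to 0.49 for RPLP0. The respiratory chain had 21 of 21 tested and a median of -0.00 (-0.10 without control array 2 to 0.11 without control array 4), with COX8H at -1.19, SDHA at 0.52 and COX7A2 at -0.52.

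**Figure D4:**
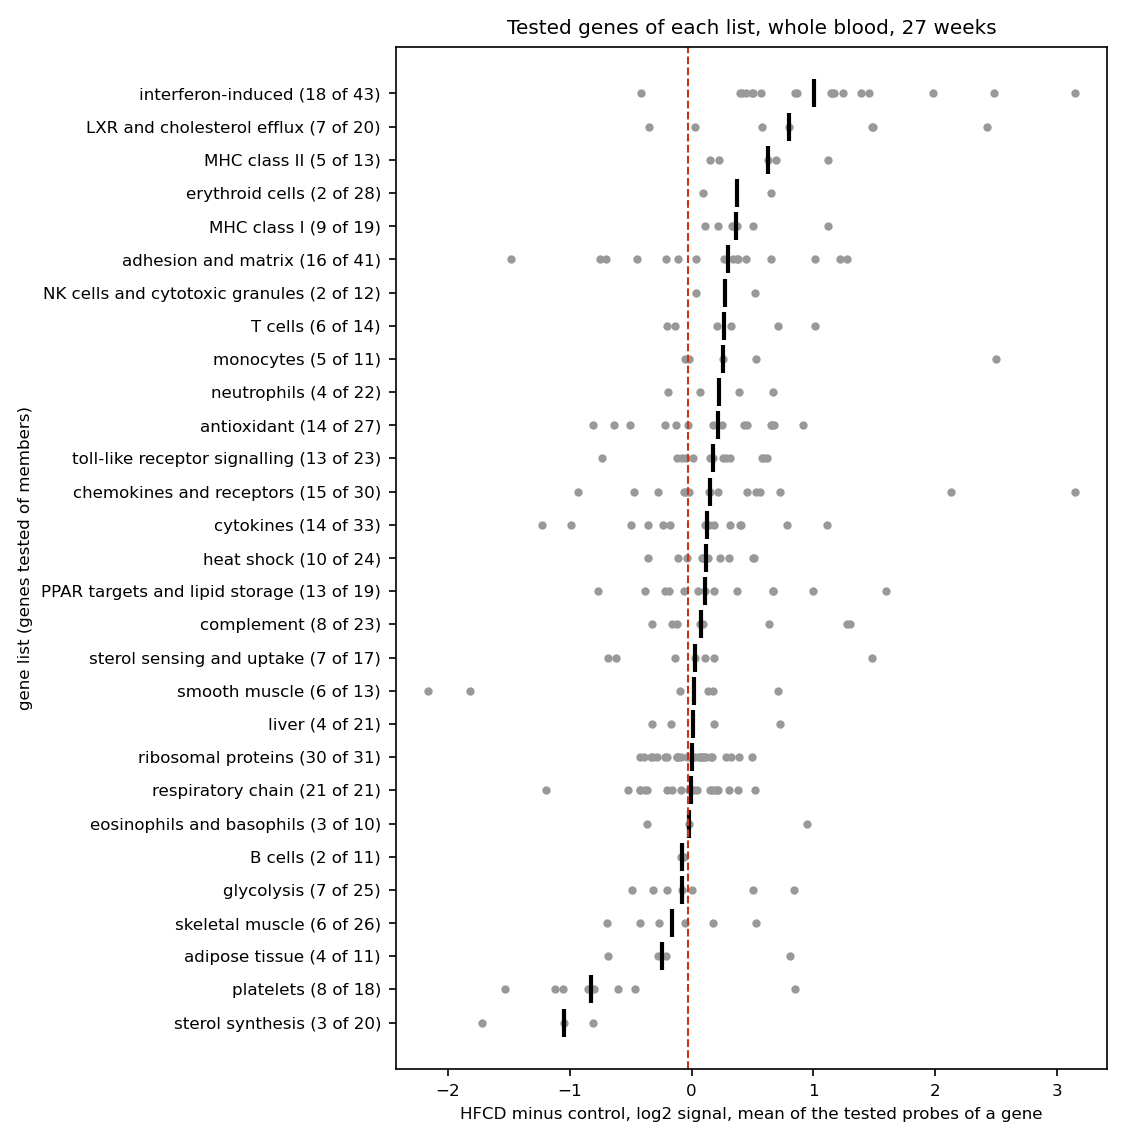
HFCD minus control change (log2, mean of the tested probes of a gene) of every tested gene of each list; points are genes, the black mark is the list's median and the dashed line the median of all tested probes, -0.03. Medians run from -1.05 for sterol synthesis to 1.01 for interferon-induced genes.

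Of unnamed probes, A_72_P337818, described as serum amyloid A2, an acute phase protein, read 2.47, 2.72, 2.32 and 2.22 in controls and 4.07, 6.04 and 5.47 in HFCD. No control array was well above background and all 3 HFCD arrays were, so the difference is a bound: HFCD was at least 3.27-fold higher. Its adjusted p was 0.785. A_72_P024976, described by a fish protein related to the Wiskott-Aldrich gene, read 10.13, 10.40, 10.73 and 9.59 in controls and 7.54, 7.96 and 7.43 in HFCD. The groups were far apart, and the change of -2.57 had an adjusted p of 0.893. Without HFCSD array 3, which adds to the estimate of the spread, that adjusted p was 0.0270.

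A_72_P184916, a porcine macrophage cDNA, had the lowest change, -4.68 (SE 1.68, adjusted p = 0.893). It read 11.51, 10.87, 10.57 and 10.58 in controls and 10.53, 4.38 and 3.68 in HFCD. HFCD arrays 2 and 3 were low while array 1 lay next to the controls, and 2 of the 3 were well above background. After these values were seen, the probe was looked at on all 45 arrays: 29 lay between 10.27 and 11.67 and 16 between 1.57 and 7.01, with none between. All 4 control arrays of white blood cells were high, and of the 4 HFCD arrays there 2 were high and 2 low. At 10 weeks 1 of 4 control arrays of whole blood was low.

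Whether the diet's effect differed between sample types or feeding periods was tested as a contrast of contrasts (limma). For 27-week whole blood against white blood cells, 0 of 20070 probes passed an adjusted p under 0.05 and 267 an unadjusted p under 0.05 (1.33%). Between 27 and 10 weeks in whole blood, 0 of 19141 passed and 949 at the unadjusted p (4.96%). Between 27 and 19 weeks, 0 of 18439 passed and 375 at the unadjusted p (2.03%). These fits treat samples drawn from the same pigs as independent. With each replicate number of a diet taken as 1 pig and used as a random block, the counts stayed at 0, with 281, 1393 and 628 at the unadjusted p. The labels do not say that the numbers name pigs. Leaving out HFCD array 1 or HFCD array 2 gave 1 probe for the sample types, and leaving out control array 4 or HFCD array 2 gave 1 for 10 weeks. Kit and sample type go together, so a difference between them in these samples could not be assigned to either.

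HFCSD and HFCD share their control arrays, so the diets were compared directly. Of 18003 probes, 2 passed an adjusted p under 0.05 for HFCSD minus HFCD, both of them admitted to the test by their HFCD arrays alone and not well above background on any HFCSD array, so that only bounds are given. Of all, 2259 passed at the unadjusted p (12.5%). A_72_P371473, described as insulin receptor substrate-1, read 4.52, 4.81 and 3.93 in HFCD and 1.53, 1.45 and 1.42 in HFCSD. No HFCSD array was well above background, and HFCD was at least 1.09-fold higher. A_72_P139261, an unnamed cDNA, read 4.63, 4.35 and 4.66 in HFCD and 2.63, 2.73 and 2.59 in HFCSD, at least 1.19-fold. Both probes were seen after the test and lie close to the dim end of the scale. Without HFCSD array 3 the count was 42, without HFCD array 2 it was 17 and without HFCD array 1 it was 0.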

How the data were processed

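The deposited array files hold background-subtracted signal as intensity made by the authors with Agilent Feature Extraction (9.5.3.1 in the labels, 10.5.1.1 per the file headers); the deposited series table holds normalized intensity. Signals were taken to log2 and quantile normalized over all 45 arrays, spots with outlier marks were dropped and the spots of a probe averaged. limma 3.58.1 in R 4.3.3 fitted the 10 whole blood arrays of 27 weeks (contrast HFCD minus control, two-sided, Benjamini-Hochberg over 18186 probes); tables were made with Python 3.11.15. The pipeline was tested on simulated data. Probes were named from accessions, gene names and descriptions in the files and from RefSeq symbols. No array was left out. Named are all probes past the adjusted test, the study's symbols, the 10 largest separated changes each way at unadjusted p under 0.05, the 3 largest of each list and 2 unnamed probes each way. Members and lists were chosen with earlier results of these data known, and the study's symbols are not independent evidence. Alternatives covered scaling, background, filters, arrays in the fit, slide and replicate terms, the study's criterion and leaving out arrays.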

Additional observations from a re-analysis of the deposited data

Results flagged for a closer look

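In 61 sets of 4 control values (31 named probes, 29 list scores and the share of spots), 1 array was tested for standing apart from the other 3; chance alone picks about 1 in 20 such sets, and 2 were picked. For ABCA1 A_72_P079266, control array 2 at 10.41 lay above the others, at 9.84 to 9.92, with a gap of 0.866 of the range. It remained below all HFCD arrays. For RSAD2 A_72_P303019, control array 1 at 9.79 lay above the others, at 7.68 to 8.02, with a gap of 0.842 of the range, and this array is the one that overlaps with HFCD. The HFCD group of 3 was not tested in this way.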

How the results depend on the processing

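Against 3 raised and 0 lowered probes by adjusted p, fitting all 45 arrays gave 5 and 1. That fit treats repeated samples from the same pigs as independent. The weaker presence flag and no filter on dim probes each gave 2 lowered, as did leaving out both arrays that stood apart. With a replicate block in the fit, as if the numbers named pairs, both counts were 0, with adjusted p of 0.137 for ABCA1; this block leaves control array 4, which has no partner, without weight. Adjusting the p-values of the study's own test gave 0 raised. Leaving out 1 array at a time gave 2 to 4 raised and 0 to 3 lowered.

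The study's criterion gave 87 higher and 191 lower: 33 and 82 with normexp background correction, 181 and 287 with the weaker flag, 181 and 290 with no filter, and 55 higher when all 7 arrays had to be well above background. Leaving out 1 array gave 47 to 535 higher and 102 to 223 lower.

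The difference in the share of spots, -0.0841, was 1.25 with the weaker flag and ranged from -2.53 to 1.22 leaving out 1 array. The counts of 0 for tissue and feeding period became 0 to 1 leaving out 1 array. The 2 probes of HFCSD minus HFCD became 0 with 75th percentile scaling, normexp, the replicate block, slide as a fixed block or the share of spots as a covariate, and 0 to 42 leaving out 1 array.

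The alternatives were followed for 31 probes: those past the adjusted test, the study's symbols, the highest and lowest changes and A_72_P034336. None of these changed sign. For them, leaving out 1 array gave 310 values, of which 3 lost and 3 gained the adjusted call, and the other alternatives gave 457, of which 9 lost and 2 gained it. Of the list medians, 13 of 290 moved by more than the SD of the control scores leaving out 1 array and 18 of 232 otherwise. Leaving out both arrays that stood apart was chosen after seeing the data. Causes were not tested. Dim probes and 3 or 4 arrays a group limit what can be seen.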
